A study of Homo sapiens with 4 samples.

Results

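The 8 globin genes HBA1, HBA2, HBB, HBD, HBG1, HBG2, HBE1 and HBZ, chosen by name out of 59792 genes in the RefSeq table of GRCh38.p14, were examined for peaks of an HA antibody ChIP-seq experiment in K562 cells, a human leukemia line established from chronic myeloid leukemia. A peak was taken to be at a gene when it overlapped the gene by at least 1 bp, and peaks within 5 kb were also searched. The genes were selected because peaks had already been seen at some of them in these libraries, so that the number and height of their peaks are a description and were not tested.

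Chromatin of cross-linked, untreated K562 cells overexpressing HA-PHF6 or, as control, HA was precipitated with an antibody against the HA tag, and 2 ChIP libraries, titled IPHA and IPWT, were each sequenced with an input of their own. PHF6 is a chromatin-associated PHD finger protein encoded on the X chromosome. The titles do not settle which of the libraries held HA-PHF6, and the libraries are named here by their labels, HA and WT. With 1 library per label there were no replicates, and no difference between the labels could be set against a spread between replicates. The HA-labelled library kept 16132466 ChIP tags and gave 12662 peaks, and the WT-labelled library kept 22257947 ChIP tags and gave 6874 peaks.

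Hemoglobin is built from α-like and β-like globin chains. The α-like genes lie on the short arm of chromosome 16 in the order HBZ, HBA2, HBA1, and the β-like genes lie on the short arm of chromosome 11 in the order HBE1, HBG2, HBG1, HBD, HBB along the direction of transcription. In development HBZ and HBE1 are expressed in the embryo, HBG1 and HBG2 in the fetus, and HBB with a little HBD after birth. HBA1 and HBA2 are active before birth as well as after it, and are counted here with the adult genes. K562 cells are known for expressing embryonic, fetal and α globins and little or no HBB. All members of the family share the same arrangement of exons, and the second intron is long in the β-like genes and short in HBA1 and HBA2. Transcription runs toward higher coordinates in the α cluster and toward lower coordinates in the β cluster.

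Of the 4 adult genes, 3 (HBA1, HBA2 and HBB) held at least 1 peak in the WT-labelled library, against 1 (HBB) in the HA-labelled library, and these numbers were the same when peaks within 5 kb were counted. Of the 2 fetal genes and the 2 embryonic genes, 0 held a peak in either library. Over all 20037 protein-coding genes of the assembled chromosomes, peaks were present at 8.58% in the WT-labelled library and at 18.0% in the HA-labelled library, or at 10.2% and 22.1% with peaks within 5 kb. Among the 1156 protein-coding genes no longer than HBZ, the longest of the globin genes with 1860 bp, these shares were 1.04% (95% Wilson confidence interval 0.595% to 1.81%) and 1.47% (0.920% to 2.34%). The 12 (WT) and 17 (HA) short genes with a peak include the globin genes, 3 and 1 of them. Since the globin genes were picked for their peaks, nothing is read from these counts.

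The β cluster, from the low end of HBB to the high end of HBE1, spans 44.5 kb on chromosome 11, from 5225464 to 5269945. It held 2 peaks labelled WT and 1 labelled HA, and each of them was at HBB. The α cluster, from HBZ to HBA1, spans 24.9 kb on chromosome 16, from 152644 to 177522. It held 2 peaks labelled WT and none labelled HA. Neither library had a peak between the globin genes or within 5 kb of the cluster ends that did not overlap a globin gene. On chromosome 11 the next peak labelled WT outside the cluster lay 408 kb below HBB and the next one above HBE1 was 467 kb away. On chromosome 16 the next peak labelled WT above HBA1 was 11.5 kb away, and the next ones labelled HA lay 68.3 kb below HBZ and 184 kb above HBA1.

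HBB (gene ID 3043), the adult β-globin gene, lies on chromosome 11 from 5225464 to 5227071 and is 1608 bp long. It held a peak near each of its ends in the WT-labelled library. The peak near the 5′ end ran from 5226474 to 5227052 over 579 bp, and its highest point, the summit, was at 5226780. The pileup there, which is the count of extended ChIP tags, was 101 (95% Poisson interval 82.3 to 123, for counting error only) against a local background of 3.62, which gives a 22.1-fold enrichment. The peak near the 3′ end ran from 5225402 to 5225843 over 442 bp and had its summit at 5225608. There 79 tags (62.5 to 98.5) stood against a background of 3.82, for a 16.6-fold enrichment. The intervals of both pileups overlap.

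The HA-labelled library had 1 peak at HBB, from 5226429 to 5226629, and its summit was at 5226524. It rested on 10 tags (95% Poisson interval 4.80 to 18.4) against a background of 2.09, for a 3.56-fold enrichment. Its −log10 q of 0.651 did not reach a q-value of 0.05, where q is the p-value after adjustment for multiple testing by MACS, the peak caller. Its length of 201 bp equals that to which tags of that library were extended. The peak overlapped the 5′ peak labelled WT by 156 bp, which is 77.6% of the former and 26.9% of the latter, and its summit lay 256 bp farther from the 5′ end of the gene.

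Scaled to 1000000 ChIP tags, the 5′ peak of HBB reached 4.54 tags in the WT-labelled library and the HBB peak reached 0.620 tags in the HA-labelled library, a ratio of 7.32 (95% exact binomial interval 3.82 to 15.7, for counting error only). At the level of the WT-labelled peak, allowing for library size and tag extension, 62.9 tags would have been expected in the HA-labelled library. The peak called there held 10. The summits lay 256 bp apart, so neither these tags nor the ratio compare the same position. The HA-labelled pileup at the WT-labelled summit was not known. At the 3′ end of HBB, 49.2 tags would have been expected and no peak was called. This is a difference between single libraries at a gene chosen for its peaks, and how each was made cannot be told apart from its label.

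HBA2 (gene ID 3040) and HBA1 (gene ID 3039) encode the same α-globin protein. HBA2 lies on chromosome 16 from 172876 to 173710 (835 bp) and HBA1 from 176680 to 177522 (843 bp), with 2969 bp between them. In the WT-labelled library, HBA2 held a peak of 583 bp from 173158 to 173740, the summit being at 173566. Its pileup was 75 tags (95% Poisson interval 59.0 to 94.0) against a background of 2.37, and its fold enrichment of 22.5 was the highest of the 6874 peaks. HBA1 held a peak of 587 bp from 176981 to 177567, the summit being at 177380. Its pileup was 62 tags (47.5 to 79.5) against 2.80, for a 16.6-fold enrichment. The intervals of the 2 pileups overlap, and a difference in level between the α genes was not tested.

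The HA-labelled library had no peak at HBA2 or HBA1, and its nearest peak was 88.6 kb from HBA2. At the WT-labelled level 46.7 and 38.6 tags would have been expected there. The p-value cutoff of 0.005 would have been passed by 4 tags at the genome-wide background of that library (1.05 tags) and by 7 tags at the background it had at HBB. Reads were kept only where they mapped to 1 place, so that reads from stretches identical in HBA1 and HBA2 were not counted at either gene. The levels of HBA1 and HBA2, and the edges of their peaks, are therefore uncertain.

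**Figure D1:**
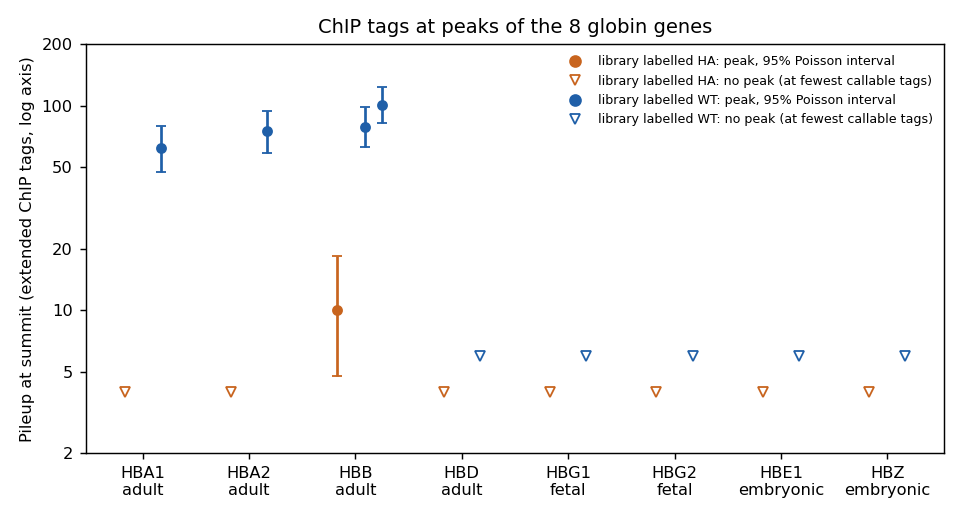
The pileup of each peak, in extended ChIP tags on a log axis, is plotted for the 8 globin genes, with 95% Poisson intervals that cover counting error, for the libraries labelled HA (orange) and WT (blue). Open triangles mark genes with no peak, at the 4 (HA) or 6 (WT) tags that would have been the fewest to pass at the genome-wide background; the peaks labelled WT sit between 62 and 101 tags and the peak labelled HA at 10.

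Counted from the 5′ end in the direction of transcription, the peaks of HBB left the middle of the gene free. The 5′ peak labelled WT began 19 bp inside the gene and ended 597 bp from its 5′ end, and the 3′ peak began at 1228 bp and ended 62 bp past the 3′ end. The 630 bp between them held no peak labelled WT, and together the peaks covered 959 bp (59.6%) of the gene. The peak labelled HA reached 45 bp into this gap.

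In HBA2 and HBA1 the peaks covered the 3′ part. They began 282 and 301 bp from the 5′ end, reached their summits at 690 and 700 bp, and ended 30 and 45 bp past the 3′ end. Measured this way, the peaks of the α genes were shifted against each other by 10 to 23 bp. They covered 66.2% of HBA2 and 64.3% of HBA1, and the first 282 and 301 bp of the genes held no peak. Reads shared by HBA1 and HBA2 were not counted, so this does not show that those bases had no enrichment. The summit positions of both genes carry the same limit. The distance from the summit to the 3′ end of the gene was 144 bp in HBA2, 142 bp in HBA1 and 144 bp for the 3′ peak of HBB. No peak reached upstream of the 5′ end of its gene in either library, and none reached more than 62 bp beyond the 3′ end.

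Of each peak labelled WT at a globin gene, 86.0% to 100% lay inside the gene. Among the other protein-coding genes of at most 1860 bp, 9 held a peak labelled WT, with a median of 54.3% and a range of 2.56% to 100% inside the gene, the peaks at H3C2 and FTL being wholly inside. In the HA-labelled library, 17 peaks at 16 other genes of this length had a median of 100% inside. Among them C1orf122 entered with more than 1 summit, each with a length of 539 bp and 63.6% inside. The 9 peaks labelled WT had fold enrichments from 2.11 to 4.21 and at most 30 tags. Of the 1156 genes up to this length, HBB was the one with more than 1 peak labelled WT. RefSeq exons were not used here, so whether the gap in HBB falls on its long second intron, and whether the summits lie in exons, was not analysed.

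**Figure D2:**
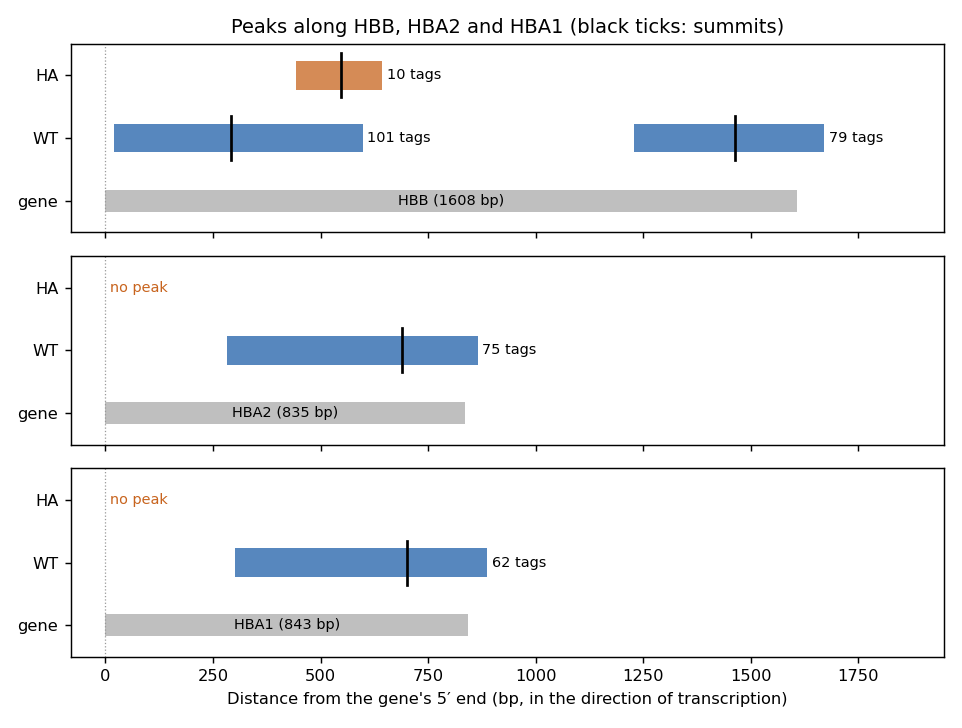
Peaks of the WT-labelled (blue) and HA-labelled (orange) libraries are drawn along HBB, HBA2 and HBA1 (gray) by distance from the 5′ end of the gene in bp, with black ticks at the summits and the tags at each summit beside them. The peaks labelled WT leave 630 bp in the middle of HBB free, and 3 summits lie 142 to 144 bp from the 3′ end of their gene. Reads shared by HBA1 and HBA2 were not counted, so positions in these genes are uncertain.

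The globin peaks were among the strongest of the list labelled WT. By −log10 q they ranked 1 (HBB, 5′ peak), 3 (HBA2), 5 (HBB, 3′ peak) and 8 (HBA1), with −log10 q of 99.2, 76.7, 67.2 and 53.9. By fold enrichment they ranked 2, 1, 4 and 5. By pileup alone they ranked between 160 and 227, since peaks of high background elsewhere held more tags. The local background at the 4 summits was 1.41 to 2.27 times the genome-wide background of 1.68 tags. The peaks were also long, at 442 to 587 bp against a median of 267 bp, and 92.4% to 97.8% of the list was shorter. Of all protein-coding genes, 5 (0.025%) held a peak labelled WT with a fold enrichment of at least 5, namely HBB, HBA1, HBA2, RPS29 and FAM90A23, and the peak at RPS29 overlaps the gene of the abundant 7SL RNA, RN7SL1. In the HA-labelled library such a peak was held by 46 protein-coding genes (0.23%), with none of the globin genes among them, and the peak at HBB ranked 871 by −log10 q and 1357 by fold enrichment.

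**Figure D3:**
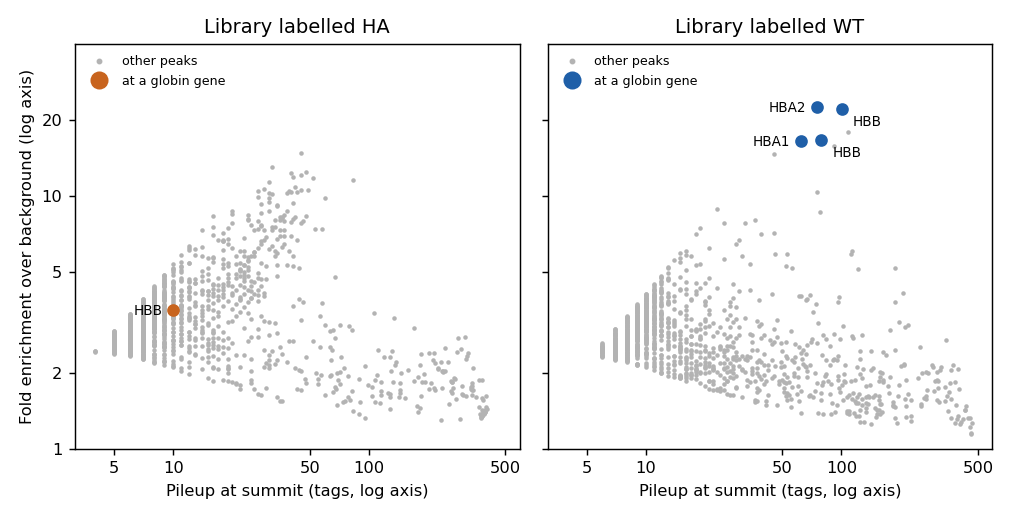
Every peak of both lists is plotted by its pileup (tags) and its fold enrichment over background, both on log axes, with peaks at globin genes in color and other peaks in gray. The 4 globin peaks labelled WT lie at fold enrichments of 16.6 to 22.5, near the top of their list, and the HBB peak labelled HA lies at 3.56, rank 1357 of the 12662 peaks of its list.

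HBD (gene ID 3045) encodes the δ chain of the minor adult hemoglobin and is the closest relative of HBB in the cluster. It lies on chromosome 11 from 5232838 to 5234483 (1646 bp) and held no peak. The nearest peaks were those at HBB, 5.79 kb away in the WT-labelled library and 6.21 kb away in the HA-labelled library. Of the 8 globin genes, 1 had its promoter window in the RefSeq sequences used here, and it is shown because HBD is the adult gene without a peak. The 250 bases before its start, chr11:5234484-5234733 on the minus strand of GRCh38.p14, read 5′ to 3′ with matches to the searched motifs in capitals.
HBD promoter: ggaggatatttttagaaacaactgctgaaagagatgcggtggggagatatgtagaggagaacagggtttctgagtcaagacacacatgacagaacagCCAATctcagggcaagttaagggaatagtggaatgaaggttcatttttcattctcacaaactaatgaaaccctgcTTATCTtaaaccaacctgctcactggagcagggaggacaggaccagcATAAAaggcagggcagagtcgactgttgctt
The window of 300 bases, which includes 50 bases after the start, was searched on both strands for the motif CCAAT of CCAAT-box factors, the motif CACCC of KLF proteins, the motif AGATAA of GATA factors and the motif ATAAA of TATA boxes. The first of these occurred 1 time and began 153 bases before the start. The GATA motif occurred 1 time on the opposite strand, 78 bases before the start, and the TATA-box motif 1 time, 31 bases before it, with no overlap among them. CACCC was not among the letters of this window. The share of all 35116 promoter windows with a match was 34.6% for CCAAT, 59.9% for CACCC, 10.3% for AGATAA and 34.9% for ATAAA. No peak of either library reached this window.

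The fetal γ-globin genes HBG1 (gene ID 3047, 5248269 to 5249857) and HBG2 (gene ID 3048, 5253188 to 5254781) held no peak, and the nearest one labelled WT was the 5′ peak of HBB, at 21.2 and 26.1 kb. They are close copies of each other, so the limit on reads shared by HBA1 and HBA2 applies to them too. HBE1 (gene ID 3046, 5268345 to 5269945), the embryonic ε-globin gene, was 41.3 kb from that peak. HBZ (gene ID 3050, chromosome 16, 152644 to 154503), the embryonic ζ-globin gene, was 18.7 kb from the peak of HBA2 and held none. At the genome-wide background of the WT-labelled library, 6 tags would have passed the cutoff, against the 62 to 101 tags at the genes that held peaks. At a background of 4 tags, 10 would have been needed, and the local background at genes without a peak was not known. Levels under such limits were not seen, so the absence of a call does not show that these genes had no enrichment.

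Counts for the other loci and genes of the system are to be read beside the shares of all protein-coding genes with a peak, 8.58% labelled WT and 18.0% labelled HA, and beside the median fold enrichments of the lists, 2.84 labelled WT and 2.93 labelled HA. Of the other globin loci, 8 of 10 listed were found in the gene table (HBM, HBQ1, HBBP1, HBAP1, HBZP1, MB, CYGB and NGB). Of these, NGB (neuroglobin) held a peak labelled WT with a fold enrichment of 2.60 and CYGB (cytoglobin) one labelled HA with 2.97. Of the 12 regulators of globin genes, 2 held a peak labelled WT and 3 held one labelled HA, against 8.58% and 18.0% of all protein-coding genes. TAL1, a transcription factor of red cell precursors, had a fold enrichment of 2.72 labelled WT. ZFPM1, the partner of GATA1 also called FOG1, had 3.29 labelled WT and 2.31 labelled HA, at different places. LMO2, a bridging protein of the GATA1 complex, had 2.28 labelled HA, and SOX6, a repressor of the γ genes with BCL11A, held 2 peaks labelled HA at 2.70 and 2.97. GATA1, GATA2, KLF1, LDB1, NFE2, BCL11A, ZBTB7A and MYB held none in either library.

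The 9 genes of heme synthesis, among them ALAS2, the first enzyme of the pathway in red cells, held 0 peaks in either library. Of 13 red cell genes, 1 held a peak labelled WT (TFRC, the transferrin receptor, 2.70) and 3 held one labelled HA (ANK1, SPTB and EPB41, which encode the membrane skeleton, 2.44 to 2.81), where the shares over all protein-coding genes were again 8.58% and 18.0%. AHSP, the chaperone of free α globin, held none. Over these 4 lists the highest fold enrichment was 3.29, less than at any of the globin peaks. The highest −log10 q was 0.536, at ZFPM1 labelled WT, so no peak of these lists reached a q-value of 0.05. The shares per list are not set against a test, and the genes differ in length from the globin genes, the longest with peaks being SOX6 at 772029 bp.

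Housekeeping genes with abundant messenger RNAs were compared because 5 of the 10 listed (ACTB, ACTG1, EEF1A1, EEF2 and FTL) held a peak labelled WT. A peak labelled HA was held by 0 of 10, with 8.58% (WT) and 18.0% (HA) of all protein-coding genes as background. The 10 genes are 1571 to 9408 bp long, and this background depends on gene length. Among protein-coding genes of at most 1860 bp it was 1.04% (WT) and 1.47% (HA). Since the list was taken up for its peaks labelled WT, nothing is read from either count. Of the 5 peaks, the one at FTL alone reached a q-value of 0.05, with −log10 q of 6.60. At ACTB, ACTG1, EEF1A1 and EEF2 the −log10 q was at most 0.536, so the count of 5 rests mostly on weak calls. The pileups of the 5 peaks ranged from 11 tags at EEF2, an elongation factor, to 30 tags at ACTB (β-actin) and FTL (ferritin light chain). Their fold enrichments ranged from 2.10 to 4.21, against 16.6 to 22.5 at the globin genes. The local background was 13.6 tags at ACTB and 6.36 tags at FTL, 8.09 and 3.79 times the genome-wide level, while at the globin summits it was 2.37 to 3.82 tags. At EEF2 the background was 2.65 tags, within the range of the globin summits. RNA was not measured in these libraries, and the part of RNA abundance in either pattern was not tested.

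**Figure D4:**
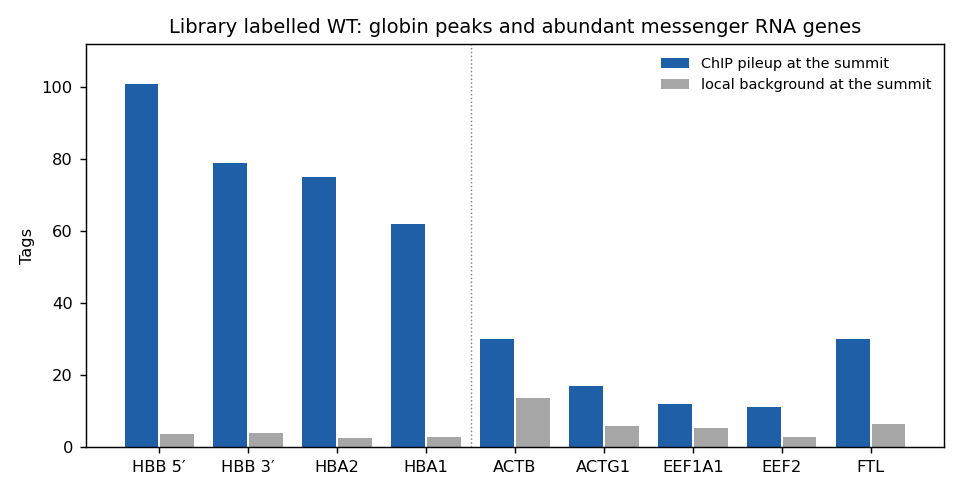
For the WT-labelled library, bars give the ChIP tags at the summit (blue) and the local background (gray) at the 4 globin peaks, left of the dotted line, and at the 5 genes of abundant messenger RNAs that held a peak. Pileups run from 62 to 101 tags at the globin genes and from 11 to 30 tags at the other genes, and the background is highest at ACTB with 13.6 tags. Of the 5 other genes, FTL alone had a peak that reached a q-value of 0.05.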

How the data were processed

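The authors called peaks with MACS 2.1.0.20150420, one ChIP library and the matching input at a time. They used deduplicated, uniquely mapped reads, a cutoff of 0.005 on p, no model of fragment length, subpeak summits, and tags extended to 201 bp (HA) or 234 bp (WT). The submitters' processing notes name BWA 0.7.12 and MACS2 2.1.0. With subpeak summits, 1 region can be listed with more than 1 summit, and each listed summit is counted here as a peak. The deposited signal is the pileup, the extended ChIP tags at the summit. The deposited fold enrichment is the ratio of pileup to local background, each with 1 added. The deposited p-value and q-value of each peak are given as −log10. The deposited positions and lengths are in bp.

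The files name no genome build. Their contig names are those of GRCh38, and genes were located with RefSeq GRCh38.p14, which paired all 8 genes. The table gives gene ends and no exons. Orientation was taken from general knowledge and, for HBD, from the promoter sequences. The background was computed from pileup and fold enrichment, and the Poisson p-value recomputed from both was within 0.01 of the deposited −log10 p for 100% of peaks. Poisson intervals are exact, shares of genes carry Wilson intervals, and no test was run, with 1 library per label. Tags were expected between libraries in proportion to ChIP tags times extension. The matching of peaks to genes, the background calculation and the merging of peaks were tested on simulated data, and the other steps were not. The members and gene lists were chosen with earlier results of these data known. All 8 members are named, and other genes as list members or as those behind a count. Alternatives were stricter thresholds, wider windows, other overlaps, merging within 500 bp, other scalings and short genes. Calculations used scipy 1.17.1, numpy 2.4.6 and pandas 2.3.3 under Python 3.11.15, and plots matplotlib 3.10.9.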

Additional observations from a re-analysis of the deposited data

How the results depend on the processing

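The 4 peaks and 3 globin genes of the WT-labelled library were counted again under each of the stricter thresholds and other overlaps. Within 10 kb the genes became 4 because HBD lies that close to HBB. With fold enrichments of 16.6 to 22.5 and −log10 q of 53.9 to 99.2, these peaks could not be lost under the stricter thresholds. The unchanged counts therefore give no further support. The single peak labelled HA, at HBB, was lost under 3 stricter limits (fold enrichment of 5 or more, q-value under 0.05, −log10 q of 5 or more), which each left 0 peaks and 0 genes. Within 10 kb it counted for 2 genes, HBB and HBD. The ratio of 7.32 at HBB ran from 6.20 for the deposited fold enrichment to 10.1 for the pileup as deposited. The share of protein-coding genes with a peak, 18.0% labelled HA and 8.58% labelled WT, was 1.47% and 1.04% among genes no longer than HBZ, and 22.1% and 10.2% with peaks within 5 kb. Fewer bases were searched in the former and more in the latter. The exon alternative was not run, since exons were not used. No paired analysis was possible because each label has 1 ChIP library. For the same reason no library could be left out. The peak labelled HA rests on 10 tags, so its position and height carry little precision.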
